A study of Mus musculus with 28 samples.

Results

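Long non-coding RNA (lncRNA) exon regions are the places where transcripts annotated as non-coding were enriched for N6-methyladenosine (m6A) in these mouse brain libraries. They were chosen by position alone. Same-strand peaks of the 14 lists were merged where they shared at least 1 bp, which gave 33937 regions, of which 32956 were autosomal. A region was kept when its midpoint lay in an exon of a same-strand lincRNA, antisense, processed_transcript, sense_intronic or bidirectional_promoter_lncRNA gene and in no exon of a protein_coding gene. The rule left 840 regions in 528 genes, beside 20501 autosomal regions whose midpoint lay in a same-strand protein-coding exon. A further 82 midpoints met a lncRNA exon on their own strand and a protein-coding exon on the other, and these were not members.

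The tissues were cerebellum and cerebrum of mice labelled male or female, taken on the day of birth (P0, postnatal day 0) or on postnatal day 7 (P7). Every animal was an F1 hybrid of the inbred strains PWK/PhJ (PWK) and C57BL/6J (C57). In F1i hybrids the mother was PWK and the father C57, while in F1r hybrids the mother was C57 and the father PWK. The cerebellum gave 6 libraries of immunoprecipitated RNA (IP), namely 2 from P0 males and, at P7, 2 from males and 2 from females. The cerebrum gave 8, with 4 at each age, and every combination of tissue, age, labelled sex and cross was 1 library. The labels do not say how many animals stand behind a library, so a p-value measures only the spread between these libraries. All cerebellum libraries came from 1 m6A-seq batch and all cerebrum libraries from another, so that tissue and batch cannot be told apart.

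m6A is written on nascent RNA by a methyltransferase complex around METTL3 and METTL14, mostly at the adenosine of the sequence GGAC and its variants, and is read by YTH-domain proteins that act on the splicing, decay or location of the transcript. In spliced mRNA it is known to be sparse near splice junctions and frequent in long internal exons, near stop codons and in last exons. Several lncRNAs, among them Xist and Malat1, are known carriers of the mark. A peak here means only that antibody-bound fragments piled up at a place. A region without a peak may be unmethylated, may belong to a transcript with little RNA, or may come from fewer cells of a type, and these cannot be told apart in bulk tissue. The fold enrichment is the authors' peak height over its local background and is not a share of methylated molecules.

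The 14 lists held 16687 to 26208 peaks. The lists do not give the number of reads behind them, but the lowest local background that each list allowed put the relative depth of the libraries between 0.566 and 1.59 times their mean. The cerebrum marker gene Emx1 had a peak in all 8 cerebrum and 0 cerebellum libraries. Of 10 cerebellum marker genes, 8 were called in every one of the 6 cerebellum libraries and 4 in 0 cerebrum libraries, among them En2 and Pax2. Peaks on Xist, which is transcribed in females, numbered 7 in the library labelled P7 cerebrum male F1r and 3 in the one labelled P7 cerebrum female F1r, whose lists held 0 and 1 peaks on the Y-linked Kdm5d. The sex labels of both libraries are therefore in doubt. Kdm5d also had 0 peaks in the P0 cerebellum male F1r and P7 cerebellum male F1i libraries. The other cerebrum libraries labelled male held 1 or 2 Xist peaks and those labelled female 6 or 7. Results on the share of regions, on presence and on fold enrichment by tissue and age were also computed without both libraries. Motif, rank, recurrence and junction results were recomputed only without 1 library at a time.

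The sequences around the strongest summits are given for 10 regions, picked mostly among regions that hold the m6A motif GGAC, which 384 of the 840 members (45.7%) had near the summit. They were read from the mouse genome build GRCm38 (mm10) in windows of 101 nt centred on the summit, with each GGAC whose A lies within 25 nt of the summit in capitals. The first 4 windows come from regions that were called in all 14 libraries with a high fold enrichment. Of the 10 such regions with the highest mean fold enrichment, 6 had no GGAC near the summit, namely those in Peg13, Meg3, C130071C03Rik, Tug1, Kcnq1ot1 and Gm40841, and C230034O21Rik is not among the 10.
2900097C17Rik, chr2:156392214-156392314, minus strand: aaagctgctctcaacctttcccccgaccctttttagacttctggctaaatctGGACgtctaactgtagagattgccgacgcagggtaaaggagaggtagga
Gm9866, chr12:27141902-27142002, minus strand: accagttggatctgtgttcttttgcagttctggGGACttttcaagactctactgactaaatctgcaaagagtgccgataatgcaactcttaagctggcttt
4632415L05Rik, chr3:19896114-19896214, plus strand: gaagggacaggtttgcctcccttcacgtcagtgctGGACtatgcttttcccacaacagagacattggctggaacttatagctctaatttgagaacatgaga
C230034O21Rik, chr3:38886527-38886627, minus strand: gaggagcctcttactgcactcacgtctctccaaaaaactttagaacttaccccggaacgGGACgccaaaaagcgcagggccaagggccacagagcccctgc
Regions called in cerebrum libraries alone included those of Dlx6os1, a transcript antisense to a homeobox gene of forebrain interneurons, and the 5′ end of the imprinted Kcnq1ot1.
Dlx6os1, chr6:6824166-6824266, minus strand: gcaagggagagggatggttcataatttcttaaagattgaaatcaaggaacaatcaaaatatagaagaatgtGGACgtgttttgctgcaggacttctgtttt
Kcnq1ot1, chr7:143295399-143295499, minus strand: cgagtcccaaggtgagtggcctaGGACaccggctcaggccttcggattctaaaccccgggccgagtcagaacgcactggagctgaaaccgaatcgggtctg
Regions called in cerebellum libraries alone included the following pair, each with 2 copies of the motif.
2010320M18Rik, chr8:70776911-70777011, plus strand: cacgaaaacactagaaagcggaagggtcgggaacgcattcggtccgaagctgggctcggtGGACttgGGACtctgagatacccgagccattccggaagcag
Gm31105, chr8:80880830-80880930, plus strand: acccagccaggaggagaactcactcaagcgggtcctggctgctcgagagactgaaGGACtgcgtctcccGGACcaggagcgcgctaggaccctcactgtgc
The last pair belongs to the region with the highest mean rank among those exclusive to P7 in cerebrum, and to the region with the largest rise in fold enrichment between P0 and P7, which had no GGAC near its summit.
Gm4657, chr9:113174868-113174968, minus strand: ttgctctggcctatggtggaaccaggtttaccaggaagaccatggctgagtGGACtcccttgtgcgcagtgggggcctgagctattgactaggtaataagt
Gm17322, chr9:58006290-58006390, plus strand: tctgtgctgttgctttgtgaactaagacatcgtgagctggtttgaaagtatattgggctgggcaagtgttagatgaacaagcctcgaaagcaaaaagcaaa

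The members were drawn from all 5 gene types. There were 343 lincRNA regions in 222 genes, 238 antisense regions in 150 genes, 175 processed_transcript regions in 101 genes, 67 bidirectional_promoter_lncRNA regions in 41 genes and 17 sense_intronic regions in 14 genes. The 528 genes were a small part of the 9392 autosomal genes annotated with these types. In 344 genes there was 1 region and in 23 genes there were 4 or more. The members were 80 to 3653 bp wide with a median of 193 bp, against 278 bp for protein-coding exon regions.

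An intron of a same-strand protein-coding gene held 49 members, and 28 lay within 5 kb downstream of one. A protein-coding gene of the opposite strand held 143 members. The midpoint of 34 members lay in an exon of a curated same-strand RefSeq mRNA although the GENCODE gene type was non-coding. Of the regions named below, these are both regions of Zswim6, both of Trerf1 and that of Gm17322, and RefSeq lists Zswim6 and Trerf1 as protein-coding genes.

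Most lncRNA regions were seen in part of the libraries, more so than regions of protein-coding exons. A peak was present in all 14 libraries for 129 of 840 members (15.4%, 95% Wilson interval 13.08 to 17.95) against 8229 of 20501 protein-coding exon regions (40.1%, 39.5 to 40.8). A single library held the only peak for 189 members (22.5%, 19.8 to 25.4) against 10.5% of the protein-coding exon regions. These intervals cover counting error only. The 11615 autosomal regions in neither class recurred less than the members, with 5.64% called in all 14 libraries and 31.0% in a single library. Cerebrum libraries alone had a peak for 291 members (34.6%) and cerebellum libraries alone for 149 (17.7%). These shares were 21.6% and 10.1% in protein-coding exon regions and 61.7% and 11.6% in the autosomal regions of neither class. Of the bidirectional_promoter_lncRNA regions 28.4% were called in all 14 libraries, and of the antisense regions 10.5%. Within each library, 53.1% ± 7.99 (SD, n = 14) of the lncRNA regions were called in every library of that tissue. This share differed from that of protein-coding exon regions by −23.1 points on average (SD 3.57) and was lower in all 14 libraries (exact sign-flip permutation test over libraries, two-sided, p = 0.000122, adjusted p = 0.000153 over the 5 comparisons made within libraries). This p is the smallest that 14 libraries can give, and the libraries share most of their regions. The lncRNA regions counted are the same 210 in every cerebrum library and the same 164 in every cerebellum library. Only the length of the list differs within a tissue, so the 14 differences are not separate evidence and the p has little weight.

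**Figure D1:**
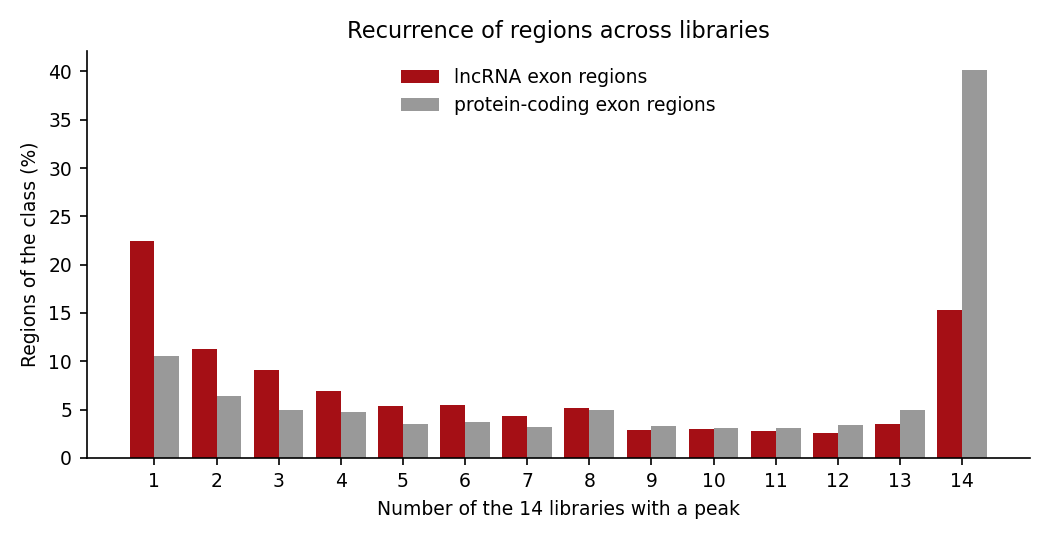
Percentage of regions (y axis) by the number of libraries with a peak (x axis, 1 to 14), for 840 lncRNA exon regions and 20501 protein-coding exon regions. The lncRNA bars are highest at 1 library (22.5%) and the protein-coding bars at 14 libraries (40.1%).

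The peaks of lncRNA regions were also weaker. Ranked by the −log10 q of the strongest peak inside its own list, the median lncRNA region stood at percentile 35.7 (SD 2.61, n = 14 libraries) and the median protein-coding exon region at percentile 59.6 (SD 1.84). The difference was −23.8 points (SD 2.78) and negative in all 14 libraries (exact sign-flip permutation test, two-sided, p = 0.000122, adjusted p = 0.000153). Ranked by fold enrichment instead, it was −12.2 points (exact sign-flip permutation test, p = 0.000122). Strength and recurrence were measured on the same peaks, and how far the one follows from the other was not tested.

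The m6A motif GGAC was more frequent at the summits than beside them. A GGAC whose A lay at most 25 nt from the summit was found in 46.6% ± 5.49 (SD, n = 14) of lncRNA regions per library, and in 15.5% ± 1.16 of windows shifted by 300 nt to both sides of the same summits. The shift was made along the genome, so a shifted window can lie in an intron or outside the transcript. The median distance of a summit in a spliced transcript to a junction was 317 nt. The summit share was higher in all 14 libraries, by 31.2 points (SD 5.03; exact sign-flip permutation test, two-sided, p = 0.000122, adjusted p = 0.000153). Taking the strongest peak of each region, GGAC was present in 384 of 840 members (45.7%), in 47.2% of protein-coding exon regions and in 44.6% of all autosomal regions. It was present in 52.7% of the 129 members called in all libraries and in 35.4% of the 189 called in a single library. Protein-coding exon regions had the same direction, with 54.6% of those called in all libraries and 40.3% of those called in a single library.

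The difference from coding regions in this motif was small and depended on the motif. The GGAC share of lncRNA summits was below that of protein-coding exon summits in 13 of 14 libraries, with a mean difference of −3.28 points (SD 2.25; exact sign-flip permutation test, two-sided, p = 0.000366, adjusted p = 0.000366). For any DRACH motif, in which A, G or T is followed by A or G, then AC, and then any base but G, the difference turned to 1.13 points (exact sign-flip permutation test, p = 0.0142). Both classes shared a larger difference between tissues. The GGAC share of lncRNA summits was 52.5% ± 1.80 in the 6 cerebellum libraries and 42.3% ± 1.70 in the 8 cerebrum libraries, with no overlap, and that of protein-coding exon summits was 54.8% ± 1.41 and 46.3% ± 1.06.

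Few summits lay close to a splice junction. The summit of 659 members fell in a spliced lncRNA transcript, and the exon that held it had a median length of 1328 nt, against 169 nt over all 33406 exons of spliced lncRNA transcripts. Exons shorter than 400 nt held 11.7% of the summits and made up 77.8% of all exons. Here each exon counts once, whatever its length, although a long exon holds more bases in which a summit can fall. The last exon held 471 of the 659 summits (71.5%), compared with 65.6% of summits in protein-coding exon regions. Summits within 50 nt of a junction were 3.95% of the total, where 11.4% of the bases of the same transcripts lie. Those at 150 to 200 nt were 11.5% against 5.16% of the bases, and those beyond 1000 nt were 17.6% against 28.8%. Along the spliced transcript the summits were spread over 5 stretches of equal length, from 24.3% in the second to 14.4% in the last.

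Counted within libraries, 7.88% ± 1.67 (SD, n = 14) of the lncRNA summits lay within 100 nt of a junction, where 17.9% ± 0.784 of the exonic bases lay. The difference of −9.98 points (SD 1.72) was negative in all 14 libraries (exact sign-flip permutation test, two-sided, p = 0.000122, adjusted p = 0.000153). In protein-coding exon regions the corresponding values were 6.08% and 30.6%. With a limit of 200 nt the lncRNA difference was 0.882 points (exact sign-flip permutation test, p = 0.137), since the frequent distances between 100 and 200 nt then counted as near.

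**Figure D2:**
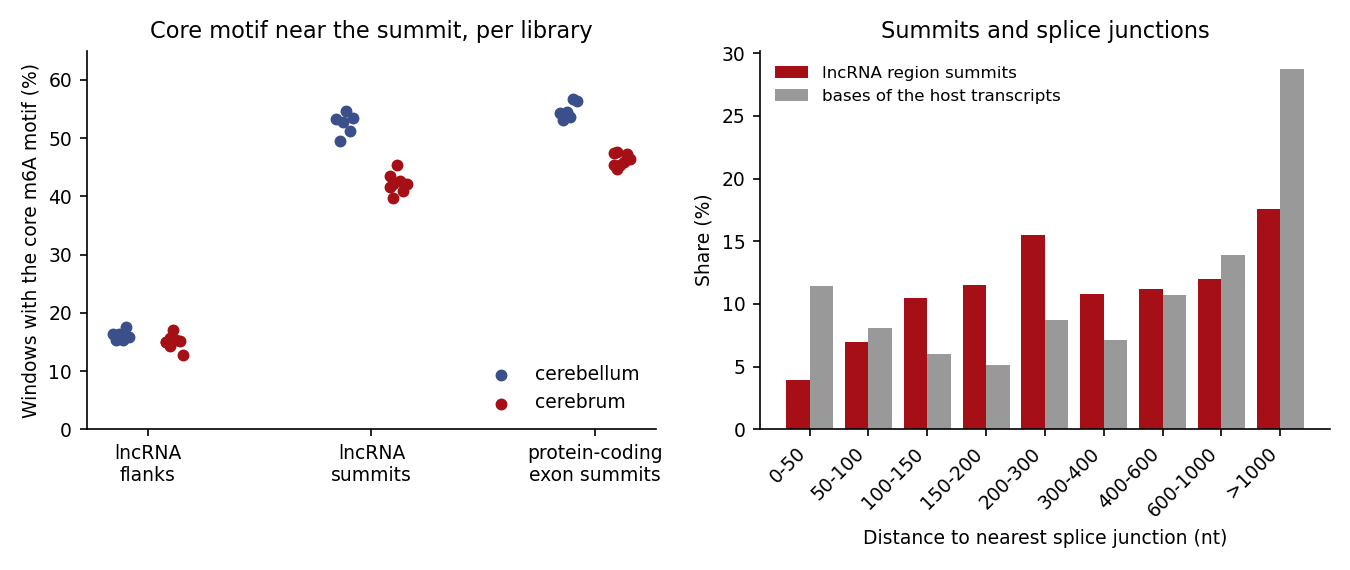
Left, percentage of windows with GGAC (y axis) at flanks and summits of lncRNA exon regions and at summits of protein-coding exon regions, 1 point per library coloured by tissue. Right, percentage (y axis) of 659 lncRNA summits and of the bases of their host transcripts by distance to the nearest splice junction in nt (x axis), where summits within 50 nt are 3.95% against 11.4% of the bases and those at 150 to 200 nt are 11.5% against 5.16%.

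The genes with most members were Kcnq1ot1 with 17, 1500004A13Rik with 11 and Six3os1 with 8, followed by E130317F20Rik, Snhg14 and BC037032 with 6 each and Meg3, Miat, Gm40841 and 3110039I08Rik with 5 each. Another 2 genes also had 5 regions, with fewer calls in all. Kcnq1ot1 is a paternally expressed, unspliced nuclear RNA that runs antisense through Kcnq1 and silences neighbouring imprinted genes, and its annotated length is 93092 nt.

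In Kcnq1ot1, 9, 8, 13 and 10 regions were called in the P0 cerebrum libraries, 2, 3, 2 and 2 in the P7 cerebrum libraries, and 1 in each of the 6 cerebellum libraries. The P0 cerebrum libraries were above all others. The region shared by all 14 libraries (chr7:143258272-143259376) had a fold enrichment of 92.8 to 116 in P0 cerebrum, 63.2 to 83.7 in P7 cerebrum and 7.78 to 18.9 in cerebellum. The region at the 5′ end (chr7:143295351-143295768) was called in all 8 cerebrum and 0 cerebellum libraries. The other 15 were called in 1 to 4 libraries each, and 1 of these calls was in a P7 library. The P0 cerebrum lists were the longest and their relative depth was 0.997 to 1.59, against 0.772 to 1.05 in P7 cerebrum, and the part of depth in this difference was not tested.

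**Figure D3:**
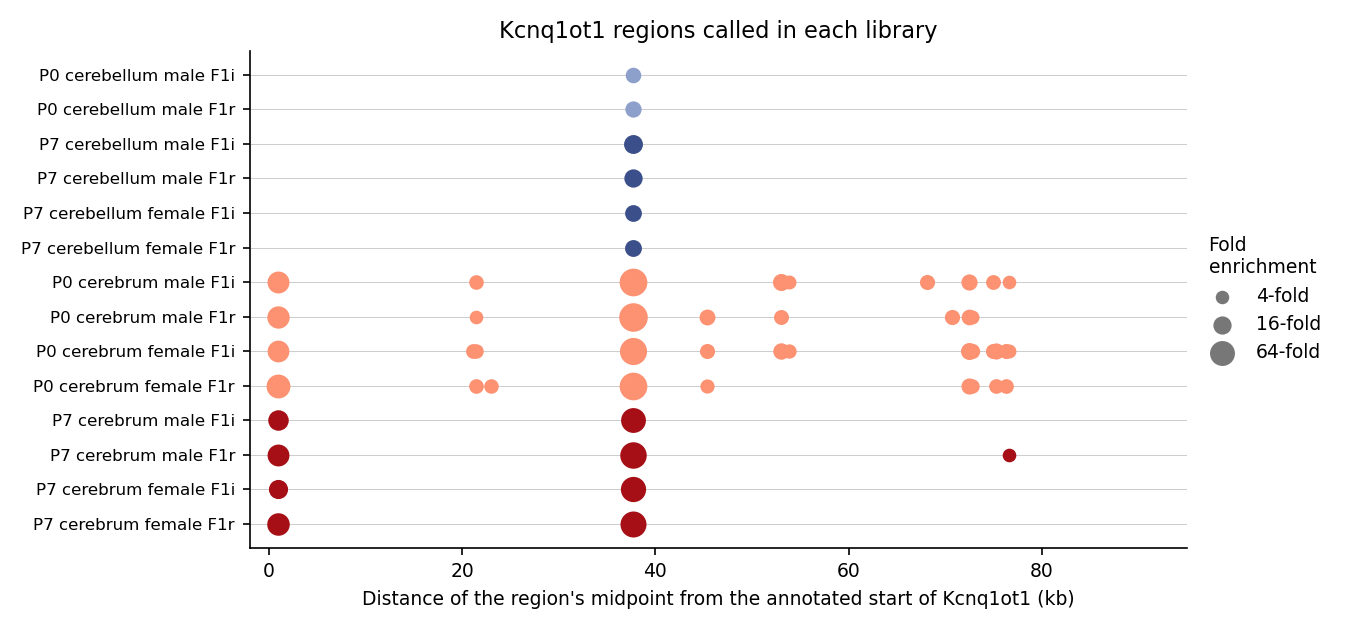
Regions of Kcnq1ot1 called in each of the 14 libraries (rows), by the distance of their midpoint from the annotated start of the transcript in kb (x axis), with the area of a point growing with the square root of fold enrichment. A single position is filled in all rows, the 5′ end is filled in the 8 cerebrum rows, and all but 1 of the other points belong to the 4 P0 cerebrum rows.

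In 1500004A13Rik, with 2 exons and a spliced length of 6054 nt, 9 or 10 regions were called in each cerebrum library and 7 to 9 in each cerebellum library, and 6 of the 11 were called in all 14 libraries. Six3os1, a neighbour of the eye and forebrain homeobox gene Six3, had no region in all libraries, and each of its 8 regions was called in 1 to 10 of them. Meg3, a maternally expressed imprinted RNA, had 4 or 5 regions called in each cerebellum library and 2 or 3 in each cerebrum library.

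Among the 129 members called in all libraries, the highest mean fold enrichment was that of Peg13, a paternally expressed RNA inside an intron of Trappc9, at 92.4. Its fold enrichment was 110.5, 141, 109.5 and 159.7 in P0 cerebrum, 108, 163, 96.0 and 109 in P7 cerebrum and 39.4 to 71.0 in cerebellum. All cerebrum libraries were above all cerebellum libraries on this uncentred scale, on which the median over all regions was also higher in cerebrum, by 0.87 (log2). After each library was centred on its median, the difference in log2 fold was 0.52 (limma, adjusted p = 0.00482). Next came 2900097C17Rik (84.5), the 3′ end of Meg3 (79.6), Zswim6 (62.6), 4632415L05Rik (61.3), Gm9866 (59.4), C130071C03Rik (58.1), Tug1 (55.9), Kcnq1ot1 (55.6) and Gm40841 (41.7). Tug1 is a widely expressed lncRNA, and C130071C03Rik is a host transcript of the neural microRNA miR-9. Fold enrichment in cerebrum ranged from 56.8 to 98.4 with a median of 87.4 for Tug1 and from 58.9 to 100.3 with a median of 91.8 for C130071C03Rik. In cerebellum the ranges were 14.9 to 21.9 and 11.9 to 23.7.

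The number of lncRNA regions was highest in P0 cerebrum, whose lists were the longest. It was 452 ± 22.2 (SD, n = 4) in P0 cerebrum, 342.5 ± 37.6 (n = 4) in P7 cerebrum, 310.0 ± 37.2 (n = 4) in P7 cerebellum and 342 ± 32.5 (n = 2) in P0 cerebellum. Outside P0 cerebrum it did not follow list length, with a mean of 19545.5 peaks in P7 cerebrum and 17354.5 in P0 cerebellum. As a share of all autosomal regions of the library the number stayed between 1.88% and 2.31%. The share was 2.05% ± 0.107 in cerebrum and 2.16% ± 0.111 in cerebellum, a difference of −0.116 points that did not pass an exact permutation test (two-sided, p = 0.0713, adjusted p = 0.285 over the 4 comparisons of the share). With each list shortened to the same number of its strongest peaks the difference was −0.346 points (exact permutation test, p = 0.000333), and as a share of exonic regions only it was 0.107 points (exact permutation test, p = 0.351).

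As a share of all regions, it did not pass the test by age, cross or sex either. In cerebrum it was 2.06% ± 0.0893 at P0 and 2.03% ± 0.134 at P7 (difference −0.0280 points, exact permutation test, two-sided, p = 0.771, adjusted p = 0.828, with 0.0286 the smallest p that 4 against 4 libraries allow). With lists of equal size the difference was 0.0839 points (exact permutation test, p = 0.257), and as a share of exonic regions only it was −0.358 points (exact permutation test, p = 0.0286). The F1r library was above its F1i partner in 4 of 7 pairs, by 0.0159 points on average (p = 0.828 in an exact sign-flip permutation test, adjusted p = 0.828). The library labelled female was above the male one in 1 of 6 pairs, with a mean difference of −0.0753 points (p = 0.25 in an exact sign-flip permutation test, adjusted p = 0.5). The most negative pair, at −0.195 points, was that of the P7 cerebrum F1r libraries, whose sex labels are in doubt, and without it the mean was −0.0514 points (exact sign-flip permutation test, p = 0.5).

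**Figure D4:**
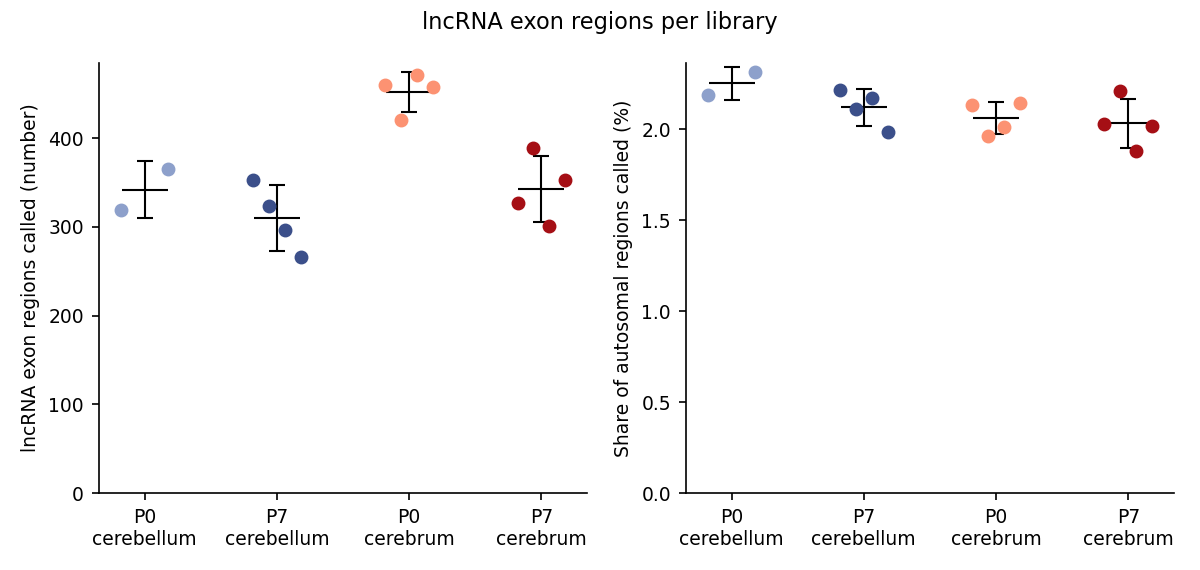
Number of lncRNA exon regions called (left) and their share of the autosomal regions of the library in percent (right), 1 point per library, with the mean (long bar) and SD of each group of tissue and age. The 4 P0 cerebrum libraries hold the highest numbers (420 to 471), while the shares of all libraries lie between 1.88% and 2.31%.

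Presence differed between tissues for 51 members. Of the 711 members called in some but not all libraries, 34 (4.78%) were called more often in cerebrum and 17 (2.39%) more often in cerebellum at an adjusted p under 0.05 (Fisher's exact test per region, two-sided, Benjamini-Hochberg over all 23943 regions tested). Over all regions tested the percentages were 7.78% and 1.84%. A peak in all 8 cerebrum and 0 cerebellum libraries was found for 18 members and the reverse for 8 members, each with a Fisher's exact p of 0.000333 and an adjusted p of 0.00658. The share of all tested regions with these exact patterns is not given here, so both counts stand without a background. Unadjusted, 118 members had a p under 0.05. With all lists shortened to equal size the split turned to 18 members called more often in cerebrum and 28 in cerebellum. The shares over all regions in lists of equal size are not given here, so whether this turn is particular to the members was not tested. The count fell to 27 to 30 when any 1 of the 6 cerebellum libraries was left out, and to 27 without the pair of libraries of doubtful sex. With the P7 libraries alone it was 0, where 4 against 4 libraries allow no p below 0.0286.

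Among the members called in every cerebrum and in 0 cerebellum libraries were the 5′ end of Kcnq1ot1, Dlx6os1, Gm28175, A830036E02Rik, Zswim6, Snhg14, Gm28756 and Gm17167. Dlx6os1 had a fold enrichment of 33.0, 25.7, 22.1 and 27.2 at P0 and 33.8, 30.9, 23.6 and 27.4 at P7, with the ages overlapping. The 5′ end of Kcnq1ot1 ranged from 20.1 to 52.9 with a median of 36.3 over the 8 cerebrum libraries. The Snhg14 region (chr7:59973966-59974165), in the long transcript that covers the Prader-Willi and Angelman locus, was low at 3.53 to 5.56 in P0 and 6.12 to 9.75 in P7 libraries.

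The members called in every cerebellum and in 0 cerebrum libraries included Meg3, Malat1, 2010320M18Rik, Gm40841, C130021I20Rik, Gm20036 and Gm16008. C130021I20Rik, which lies beside the homeobox gene Lmx1b, had a fold enrichment of 5.62 to 20.1, 2010320M18Rik of 11.3 to 20.2, and Meg3 (chr12:109561451-109561589) of only 2.26 to 3.47. Gm31105 followed with a peak in 5 of 6 cerebellum libraries at 7.92 to 34.4 (Fisher's exact test, adjusted p = 0.0399). Meg3, Malat1 and Gm40841 each had another region that was called in all 14 libraries, so that presence differed between regions of the same gene.

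Fold enrichment could be compared between tissues where every library had a peak, which held for 129 members. After each library was centred on its median log2 fold, 25 members (19.4%) were higher in cerebrum and 50 (38.8%) higher in cerebellum (limma, adjusted p under 0.05 over all 9013 regions called in every library), where all regions gave 31.3% and 26.1%. The median log2 difference, cerebrum minus cerebellum, was −0.25 for the members and 0.05 for all regions. Without centring the median over all regions was 0.87 and the split turned to 79 members higher in cerebrum and 12 in cerebellum (6798 and 327 over all regions), so the directions hold relative to the library's other regions. On the centred log2 scale Kcnq1ot1 (chr7:143258272-143259376) was higher in cerebrum by 2.04 (limma, adjusted p = 9.29e-09) and C130071C03Rik by 1.48 (limma, adjusted p = 5.96e-08), while Neat1, the architectural RNA of paraspeckles, differed by −0.97 (limma, adjusted p = 0.00121).

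Presence by age was compared in cerebrum, where both ages had 4 libraries of 1 batch. Of 481 members called in some but not all of the 8 libraries, 37 (7.69%) were called in all 4 P0 and 0 P7 libraries and 7 (1.46%) in all 4 P7 and 0 P0 libraries, beside 8.75% and 0.88% over all 16366 such regions. The members exclusive to P0 with the highest mean rank were in C130071C03Rik, Trerf1, AA387200, Gm16386, Gm26853 and Kcnq1ot1, and those exclusive to P7 in Gm4657, A830029E22Rik, C730002L08Rik, A230005M16Rik, Panct2 and AC025794.1. Gm4657 had a fold enrichment of 16.7, 19.8, 13.3 and 11.6 at P7 and no peak in any other library. Gm26853 and A230005M16Rik also had peaks in both P0 cerebellum libraries, and in 0 P7 cerebellum libraries. AA387200 had peaks in 0 P0 and 2 P7 cerebellum libraries. When all lists were shortened to equal size, 13 members were exclusive to P0 and 16 to P7, so that the excess at P0 was not found in lists of equal length. The shares over all regions at that setting are not given here.

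The fold enrichment of lncRNA regions differed between ages in a larger share than that of all regions. All 8 cerebrum libraries had a peak for 210 members. Of these, 42 (20%) were higher at P7 and 19 (9.05%) higher at P0 (limma on median-centred log2 fold, adjusted p under 0.05 over 13022 regions), where all regions gave 8.59% and 6.49%. The median log2 difference, P7 minus P0, was 0.14 for the members and 0.04 for all regions. Without centring the median over all regions was −0.22 and the split among members was 24 higher at P7 and 43 higher at P0 (450 and 2554 over all regions). Without the pair of libraries of doubtful sex the counts were 25 and 9.

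Gm17322, a lincRNA by GENCODE whose region lies in an exon of a curated RefSeq mRNA, had the largest difference in cerebrum, where at most 1 region per gene is named. Its fold enrichment was 5.12, 5.30, 5.02 and 5.89 at P0 and 27.9, 36.0, 23.9 and 19.3 at P7 in cerebrum, with no overlap (log2 difference 2.55 ± 0.18 SE, limma, adjusted p = 4.81e-07). In cerebellum it was 10.5 and 11.6 at P0 and 16.4 to 20.6 at P7. M5C1000I18Rik followed with 6.74 to 8.66 at P0 and 23.2 to 28.1 at P7 (2.00 ± 0.16), and A830036E02Rik with 9.54 to 11.8 and 26.8 to 43.5 (1.88 ± 0.17). C230034O21Rik had 25.1 to 33.0 and 51.6 to 71.7 (1.36 ± 0.16), while its cerebellum values were 35.7 and 29.1 at P0 and 11.4 to 32.5 at P7. The next 4 were 9330102E08Rik, 4933431E20Rik, 2810468N07Rik and F730043M19Rik, with log2 differences of 1.24 to 1.35, and the ages did not overlap in any of them. Of the always called regions with the highest fold, Gm9866 had 48.4 to 61.7 at P0 and 97.1 to 123 at P7 (1.20 ± 0.16).

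On the centred scale, the members that were higher at P0 showed smaller differences. This order depends on centring, since the median difference over all regions was −0.22 without it and 0.04 with it. On the listed folds, the mean of Trerf1 went from 25.0 at P0 to 8.51 at P7 and that of F730043M19Rik from 19.8 to 39.0. Trerf1, a protein-coding gene in RefSeq, had 20.1, 29.5, 30.8 and 19.7 at P0 and 9.43, 6.98, 8.85 and 8.78 at P7 (−1.27 ± 0.19 SE, limma, adjusted p = 0.000304). Gm11611 had 14.9 to 24.5 and 6.61 to 7.62 (−1.08 ± 0.17), Gm28175 25.4 to 40.5 and 9.66 to 20.9 (−1.04 ± 0.21) and Gm37233 16.5 to 22.3 and 7.52 to 10.4 (−0.83 ± 0.16). C030034I22Rik, Trmt61b, Gm15879 and Gm9856 lay between −0.91 and −0.74. These 16 regions were named by the size of their difference, after their values were seen.

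**Figure D5:**
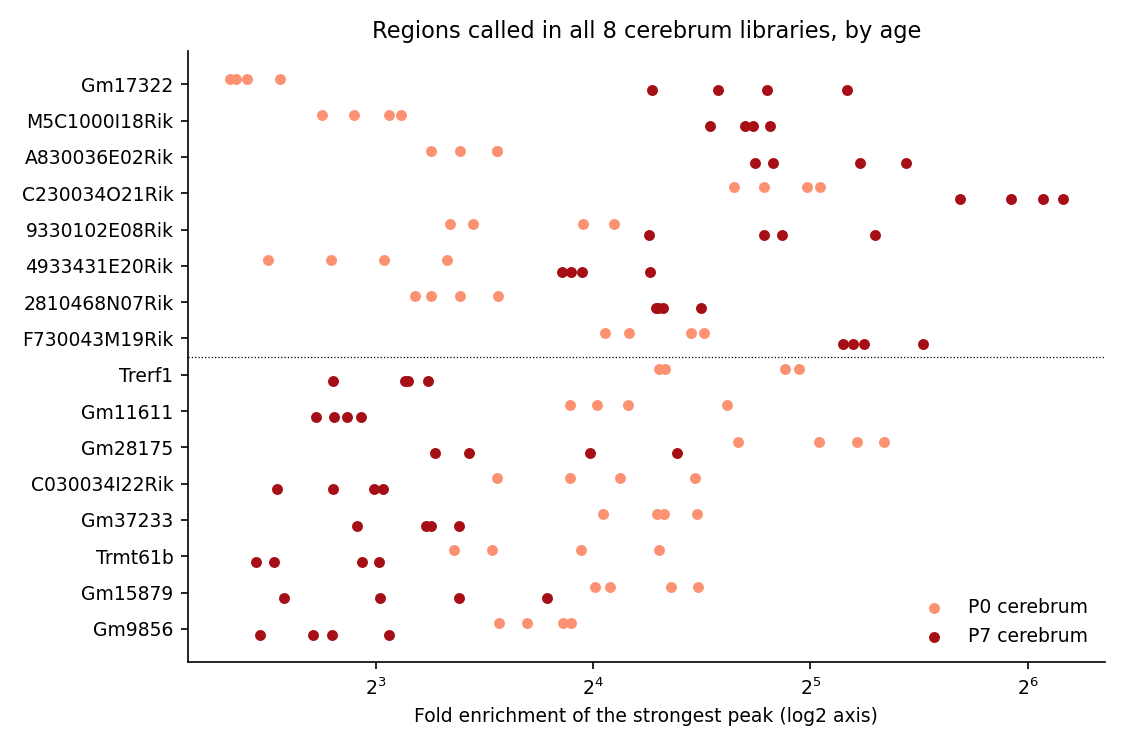
Fold enrichment of the strongest peak (x axis, log2 scale) in the 4 P0 and 4 P7 cerebrum libraries, 1 point per library, for the 8 lncRNA regions with the largest rise at P7 (above the dotted line) and the 8 with the largest fall (below it). The values are those of the lists, before centring, and range in Gm17322 from 5.02 to 5.89 at P0 and from 19.3 to 36.0 at P7.

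The reciprocal crosses differed in few members. A region was called cross-directed when it had a peak in the F1r library alone in at least 5 of 7 pairs and in the F1i library alone in 0 pairs, or the reverse. Of 608 members that differed in at least 1 pair, 2 were directed to F1r (0.329%) and 0 to F1i, beside 9 of 19894 regions in each direction over all regions (0.0452% each). Gm42047, in an intron of a same-strand protein-coding gene, had a peak in the F1r library alone of 5 pairs, with fold enrichments of 4.23, 25.2, 29.3, 10.6 and 9.97, and in 0 F1i libraries. E530011L22Rik had a peak in 7 F1r libraries at 4.10 to 7.34 and in 2 F1i libraries, and was alone in F1r in 5 pairs. With lists of equal size the count was 0, and it was 0 or 1 when any 1 pair was left out. No region differed in fold enrichment between crosses (limma on the 7 pairs, 0 of 9013, which is 0% of all regions, and 0 of 129 members at an adjusted p under 0.05). At an unadjusted p under 0.05 there were 506 regions and 13 members.

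Imprinted lncRNAs, which are expressed from the copy of 1 parent, had members in 10 of the 13 listed genes that were annotated. Over all annotated lncRNA genes, 528 of 9392 had members. Of the 37 regions of imprinted lncRNAs, 7 were called in all libraries, beside 15.4% of all members. None was cross-directed, beside 0.0452% in each direction over all regions that differed in a pair. Peaks were not split by allele, so the cross-directed count does not test an effect of parent of origin. Among the 30 tested by tissue, 3 were called more often in cerebrum, in Kcnq1ot1, Snhg14 and Mirg, and 2 more often in cerebellum, both in Meg3. Over all regions tested 7.78% and 1.84% were called in these directions. Fold enrichment was higher at P7 for 3 and higher at P0 for 0 of 11 regions, where all regions gave 8.59% and 6.49%, and these directions hold after centring, since the split among all members turned without it. Those 3 were both always called regions of Meg3, with log2 differences of 0.79 (chr12:109558643-109558951, limma, adjusted p = 0.00348) and 0.65 (chr12:109571256-109571632, limma, adjusted p = 0.0138), and the cerebrum region of Snhg14 (1.00, limma, adjusted p = 0.00151). Mirg and Rian follow Meg3 on the same strand of one imprinted domain. The single region of Mirg was called in all 8 cerebrum and 0 cerebellum libraries, and the single region of Rian in all 14.

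The list of 12 nuclear lncRNAs, which shares Meg3, Rian, Kcnq1ot1, Airn and Peg13 with the imprinted list, had 37 regions in 9 genes. All libraries had a peak for 9 of these regions, beside 15.4% of all members. Of 28 regions tested by tissue, 2 were called more often in cerebrum and 3 in cerebellum, beside 7.78% and 1.84% over all regions. After centring, fold enrichment was higher at P7 for 4 and at P0 for 0 of 11 regions, beside 8.59% and 6.49% over all regions. Malat1, the abundant nuclear speckle RNA, had 3 regions. The one called in all libraries (chr19:5800991-5801706) had a mean fold enrichment of 16.9, another was called in 8 cerebrum libraries and 1 cerebellum library, and the last (chr19:5802591-5802671) in 0 cerebrum and 6 cerebellum libraries at 4.17 to 6.03. Of the 3 regions of Neat1, 1 was called in all libraries, and it was higher at P7 in cerebrum by 0.73 (limma, adjusted p = 0.0288). Miat, a nuclear RNA of neurons, had 5 regions, 2 of them in all libraries, of which 1 was higher at P7 by 0.55 (limma, adjusted p = 0.0353).

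Hosts of small nucleolar RNAs are transcripts that carry their cargo in introns. Of 16 eligible genes of this list 1, Snhg14, had regions, beside 528 of all 9392 annotated lncRNA genes, and its 6 regions also count among the imprinted lncRNAs. Hosts of microRNAs had 19 regions in 8 of 13 annotated genes, 6 of them in all libraries, beside 15.4% of all members. Of 13 regions tested by tissue, 2 were called more often in cerebrum and 2 in cerebellum, beside 7.78% and 1.84% over all regions. After centring, fold enrichment was higher at P7 for 2 and at P0 for 0 of 9 regions, beside 8.59% and 6.49% over all regions. Mir124-2hg had a region called in all 8 cerebrum and 0 cerebellum libraries (mean fold enrichment 5.70) and another (22.7) called in 4 of the 6 cerebellum libraries too. Mir9-3hg had a region in all 14 libraries (26.5), and Mir22hg likewise (9.63).

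The list of 25 neurodevelopmental lncRNAs, most of them neighbours of homeobox or neurogenic genes, had 32 regions in 10 of 22 eligible genes. Over all annotated lncRNA genes, 528 of 9392 had regions. Presence was higher in cerebrum for 3 of 28 regions tested and in cerebellum for 0, beside 7.78% and 1.84% over all regions. The 3 were in Dlx6os1, Mir124-2hg and Pantr1, a neighbour of the neural transcription factor gene Pou3f3, the last with a peak in 7 of 8 cerebrum and 0 cerebellum libraries (Fisher's exact test, adjusted p = 0.0485). Rmst, a lncRNA of neuronal differentiation, was called in 5 of 6 cerebellum and 3 of 8 cerebrum libraries, all 3 at P0, which did not pass the test (Fisher's exact test, adjusted p = 0.424). Fold enrichment was higher at P7 for 1 and higher at P0 for 0 of 7 regions (8.59% and 6.49% over all regions), and that region was in Miat.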

How the data were processed

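m6A was measured by m6A-seq in 14 IP libraries, of polyA RNA per the labels, while the study's methods name mRNA or ribo-depleted RNA. The 14 input samples were left out here. According to the study's methods, reads were trimmed with fastp 0.21.0, aligned with HISAT2 2.1.0 to an mm10 genome masked at strain variants and freed of PCR duplicates by their molecular identifiers, and peaks were called per library and strand with MACS2 2.1.2 at an extension of 80 nt, with no pooling of replicates. The control of each peak call is not given in the sources used here. For each peak, the deposited lists hold the authors' fold enrichment, which is a ratio over local background, and −log10 p-values and −log10 q-values.

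Exons and gene types were taken from the basic set of GENCODE mouse release 21, and sequences and mRNA exons from RefSeq's GRCm38. Each region was represented by its strongest peak per library. Regions on sex chromosomes were left out. Presence was tested with Fisher's exact test and Benjamini-Hochberg adjustment over all regions (scipy 1.17.1), library measures with exact permutation tests, and log2 fold of regions called in every library compared with limma 3.58.1, after centring each library on its median. The limma comparisons were chosen after seeing the data. The Fisher and limma steps were tested on simulated data. Relative depth was derived from the lowest local background implied by fold and −log10 p. Pairs were formed from libraries of the same tissue, age and labelled sex, or cross. Alternatives changed the list size, peak threshold, membership, gene type, motif, distance and libraries used.

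The members and gene lists were chosen with earlier results of these data known. Regions named were those of the 10 genes with most regions, the 10 always called regions with the highest mean fold, the 8 per tissue with the smallest p, the 6 per age with the highest rank (at most 1 per gene), all cross-directed regions, and members in the gene lists.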

Additional observations from a re-analysis of the deposited data

Results flagged for a closer look

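In groups of 4 libraries, the gap of the highest or lowest library to its nearest neighbour was set against the range of the group, for library measures and for the named regions called in all libraries. Chance picks about 5% of groups this way, and 2 of 48 were picked. In P7 cerebrum, the median percentile of −log10 q of lncRNA regions was 31.7 in the library labelled male F1r, far below the other 3. In P7 cerebrum, the fold enrichment of the always called C130071C03Rik region was 58.9 in the library labelled female F1i, far below the other 3. This value is not centred. That library was also the lowest of its group for the always called regions of Peg13, 2900097C17Rik, Meg3, Zswim6, 4632415L05Rik, Tug1 and Gm40841. It was not the lowest for those of Gm9866 and Kcnq1ot1.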

How the results depend on the processing

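The differences of lncRNA regions from protein-coding exon regions in recurrence and peak rank, and of summits from flanks in GGAC, kept their direction and passed the test under every alternative run for them. For recurrence the libraries of a tissue count the same regions, so that test has little weight. Leaving out libraries or pairs in turn gave the ranges below. For the share of regions, cerebrum minus cerebellum, the range was −0.153 to −0.0864 points, and the test was passed without the P7 cerebellum female F1r library (exact permutation test, p = 0.0218) or the P7 cerebrum male F1r library (p = 0.0309). The difference was −0.346 points with equal list sizes, −0.118 away from protein-coding genes (exact permutation test, p = 0.0493), −0.138 without both P7 cerebrum F1r libraries (exact permutation test, p = 0.0476) and 0.107 as a share of exonic regions. For P7 minus P0 the range was −0.0867 to 0.0223 points, and the difference was 0.0839 with equal list sizes, 0.0392 for lincRNA alone, 0.0241 with opposite-strand coding exons allowed and −0.358 as a share of exonic regions (exact permutation test, p = 0.0286). For F1r minus F1i the range was −0.0119 to 0.0497 points, with −0.00242, −0.00348 and −0.00352 between them, and the difference was −0.0258 with equal list sizes and −0.0408 without both F1r libraries. For labelled female minus male the range was −0.126 to −0.0514 points, the latter without the pair of doubtful sex. Tissue calls numbered 27 to 60, with 46 for equal list sizes (18 to cerebrum and 28 to cerebellum), 23 for lincRNA alone, 27 without both F1r libraries and 0 in P7 libraries alone. Age-exclusive members numbered 47 to 59, with 29 for equal list sizes, 18 for lincRNA alone and 70 without both F1r libraries. Cross-directed members numbered 0 to 1, with 0 for equal list sizes, 1 each for stricter peaks, away from protein-coding genes, lincRNA alone and without both F1r libraries, and 4 when peaks had to cover 50% of a region. Any DRACH motif turned the GGAC difference to 1.13 points, and a limit of 200 nt turned the junction difference to 0.882 points. Members with fold differing by age numbered 43 to 54, and 34 without both F1r libraries. The causes were not tested, beyond fewer libraries or regions entering. No paired analysis by replicate number was possible because the labels give no replicate numbers. Weak peaks in shallow libraries limit all calls of presence.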
